A study of Mus musculus with 18 samples.

Results

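The endoplasmic reticulum (ER) folding and degradation machinery was described by 36 listed genes, matched by symbol to 36 of the 78239 gene identifiers in the count tables. They encode the chaperones of the ER lumen and their co-chaperones, the lectin chaperones, the protein disulfide isomerases, the ER oxidases, sensors and transcription factors of the unfolded protein response, the genes of ER-associated degradation (ERAD) and 2 genes of the translocon. The list holds the genes usually placed under ATF6 and XBP1 and leaves out the genes of the ATF4 branch. The study asked what a permanently active HIF1A does to photoreceptors, and its RNA sequencing covered mouse retina and 661W cells. Retinas came from mice injected under the retina between postnatal days 29 and 32 with adeno-associated virus, either AAV::*nsHif1a* or AAV::eGFP, and were collected 3 weeks later (5 libraries per group). The encoded nsHIF1A has its hydroxylation sites substituted, so that it escapes degradation in normal oxygen. Both viruses used the mouse opsin promoter (mOP), which is active in rods, and the virus reached only a part of each retina, so untransduced rods and all other retinal cells were in every sample. The sample labels give the mice as C57BL/6J, whereas the methods of the study name wild-type 129S6 mice. The 661W line is a single mouse photoreceptor-like line, kept here in normal oxygen, and it was transfected with CMV-nsHif1a or CMV-eGFP plasmid for 20 h (4 libraries per group). The labels do not say whether the 4 libraries came from separate cultures, so the p-values measure the spread between these libraries, which may be technical.

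Proteins that enter the secretory pathway are threaded into the ER through the translocon, bound by the Hsp70 chaperone BiP (*Hspa5*), and given their disulfide bonds by protein disulfide isomerases, which are re-oxidised by the ERO1 oxidases. Glycoproteins are held by the lectin chaperones calnexin and calreticulin, and chains that cannot be folded are passed back to the cytosol and degraded, which is called ERAD. When unfolded proteins accumulate, the sensors IRE1 (*Ern1*), ATF6 and PERK start the unfolded protein response, in which cleaved ATF6 and spliced XBP1 switch on many of the genes described here. Rods make large amounts of rhodopsin, a disulfide-bonded glycoprotein whose misfolding mutants are a known trigger of ER stress. *Ero1a* is also a known target of HIF1, unlike its relative *Ero1b*.

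Promoter sequences are shown because the members fall into those with and without the element through which ATF6 acts. The 250 bases before the transcript start of each member were read from GRCm39 and searched on both strands for the ER stress response element (ERSE: CCAAT, 9 bases of any kind, then CCACG), its variant ERSE-II (ATTGG, any base, then CCACG), the unfolded protein response element (UPRE, TGACGTGG) and the hypoxia response element core (HRE, ACGTG or GCGTG). An ERSE was present in 10 of the 36 promoters (27.8%), against 25 of 21770 promoters of the same length (0.115%). An ERSE-II was present in 3 members (8.33%), against 12 of 21770 promoters (0.0551%). The 21770 promoters include those of the members. The members were listed as genes usually placed under ATF6 and XBP1, so these shares describe the list and are no independent result. The windows of 30 bases below are read along the strand of the motif, and the letters of the motif are in capitals. The names give the gene, its position in GRCm39 and the strand read.
Hspa5, ERSE, chr2:34662032-34662061 (+): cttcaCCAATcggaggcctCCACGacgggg
Hsp90b1, ERSE, chr10:86541496-86541525 (-): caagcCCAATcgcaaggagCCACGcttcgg
Hsp90b1, ERSE, chr10:86541391-86541420 (+): aactcaCCAATcgtgcctcaCCACGcactc
Creld2, ERSE, chr15:88703718-88703747 (-): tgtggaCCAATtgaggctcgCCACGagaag
Canx, ERSE, chr11:50216621-50216650 (-): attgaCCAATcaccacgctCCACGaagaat
Pdia6, ERSE, chr12:17316487-17316516 (+): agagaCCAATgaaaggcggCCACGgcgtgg
Ero1b, ERSE, chr13:12580558-12580587 (-): cggcggCCAATgaggcgggaCCACGaggcc
Hyou1, ERSE-II, chr9:44290652-44290681 (-): ctggctgcggATTGGgCCACGtcacggttc
Manf, ERSE-II, chr9:106769228-106769257 (+): ctgcatcctcATTGGtCCACGtgcccagga
Herpud1, ERSE-II, chr8:95112996-95113025 (+): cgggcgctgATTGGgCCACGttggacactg
These are matches to letters and not shown binding sites. Of the 36 windows only 6 held no base of an annotated exon, and the others overlapped an exon of some transcript. The ERSE windows of *Dnajc3*, *Calr*, *Syvn1* and *Derl3* hold the same fixed letters and are not printed. *Hsp90b1* and *Hyou1* each had 2 matches.

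The HRE core was found in 28 of the 36 promoters (77.8%), against 41.3% of all promoters, and 9 of the 55 matches shared bases with an ERSE or ERSE-II, whose last letters resemble it on the other strand. With those left out, 27 members had a match. The UPRE was found in *Hyou1* alone (2.78% of members, 0.56% of all promoters). *Ero1a*, whose values are the largest below, had no ERSE and 3 HRE cores, starting 121, 81 and 56 bases before its transcript start. They are printed to show the setting of the core, which is in capitals.
Ero1a, HRE, chr14:45556140-45556169 (-): ccggaggcgggtGCGTGagcggggcgcgca
Ero1a, HRE, chr14:45556100-45556129 (-): cgcccgaggctcGCGTGgacagaggcgcgc
Ero1a, HRE, chr14:45556075-45556104 (+): gcctcccctgcggACGTGcagcggcgcgcg
*Pdia4* had no ERSE in its window either, although CCAAT boxes are visible, and carried a palindromic HRE core (CACGTG) at the far end. Its promoter lies outside all annotated exons and is shown whole.
Pdia4, chr6:47790463-47790712 (-): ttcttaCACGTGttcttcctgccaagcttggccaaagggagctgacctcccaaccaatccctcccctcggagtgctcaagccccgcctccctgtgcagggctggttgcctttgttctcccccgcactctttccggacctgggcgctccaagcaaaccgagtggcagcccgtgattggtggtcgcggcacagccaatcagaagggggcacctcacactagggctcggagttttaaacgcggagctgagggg
*Xbp1* had no match to any of the 4 motifs, which says only that these letters are not in this window.

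**Figure D1:**
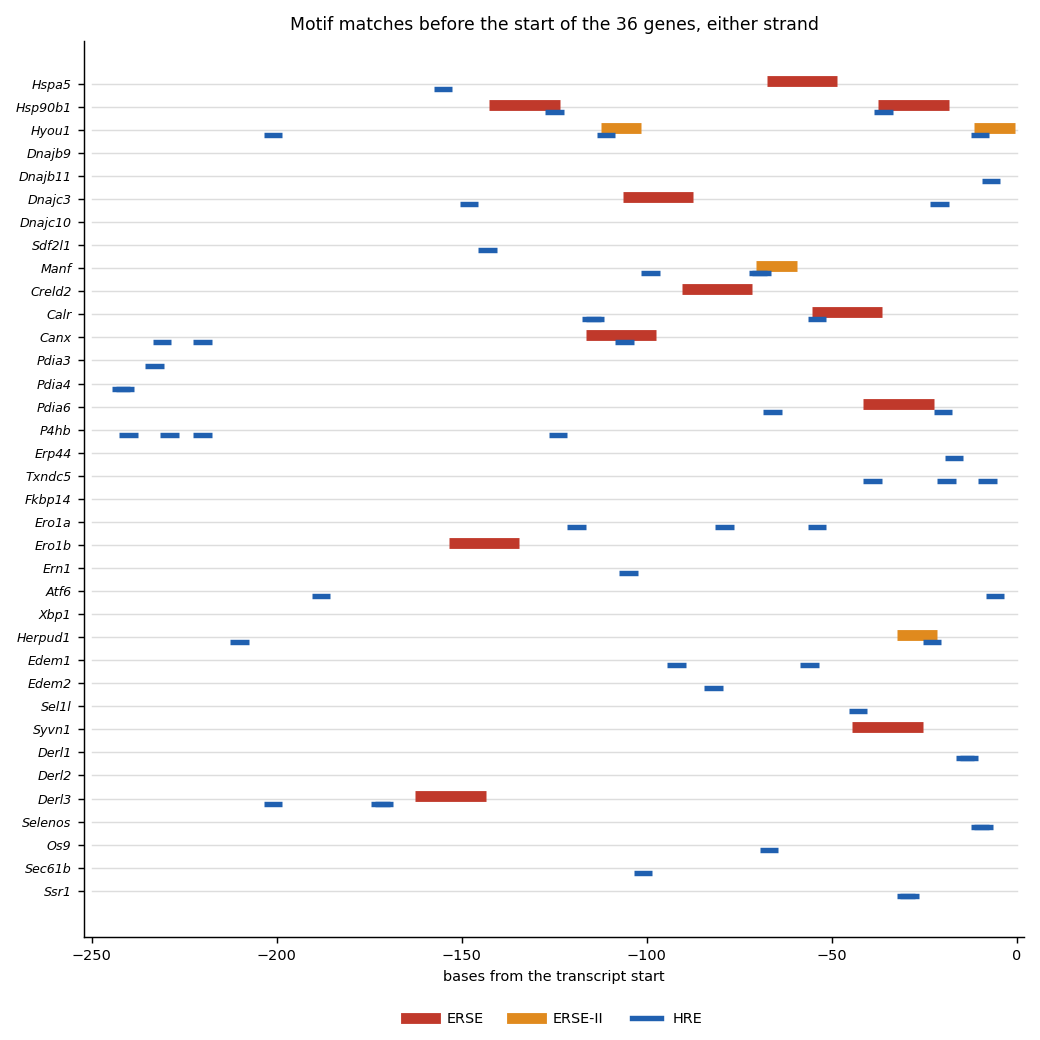
Matches to the ERSE (red), ERSE-II (orange) and HRE core (blue) in the promoters of the 36 genes. The x axis is the distance in bases from the transcript start (250 bases before it to the start) and each row is 1 gene. The ERSE marks of *Hspa5*, *Calr* and *Pdia6* lie within 67 bases of the start, and the row of *Xbp1* is empty.

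The 18 libraries held 12898220 to 17809585 counts, and 3 counts corresponded to 0.168 to 0.233 CPM (counts scaled to a common library size), which covers counting error only. *Hif1a* itself, whose counts can include reads of the transgene, was at 638 to 698 CPM with AAV::eGFP and 642 to 729 CPM with AAV::*nsHif1a* (log2 fold change, log2FC, 0.05, limma adjusted *p* = 0.50), and at 150.0 to 164 and 1222 to 1954 CPM in the cells (log2FC 3.26). AAV::eGFP libraries 3, 4 and 5 had 1 to 3 counts of the X inactivation transcript *Xist*, and the other 7 retinal libraries had 19492 to 28595. The summed level of 10 rod markers was 46641 to 51690 CPM with AAV::eGFP and 36431 to 48392 CPM with AAV::*nsHif1a*, and that of 10 lens markers 1032 to 3839 and 1141 to 20999 CPM. Rhodopsin and the other rod markers were present in every retinal library. In 661W cells the rod markers summed to 13.4 to 18.2 CPM and 8 cone markers to 2.10 to 4.71 CPM, and only 3 of the 10 and 2 of the 8 passed the filter on low counts. Replicates 1 and 2 of each cell group lay close together, as did 3 and 4. Within these pairs the counts differed by 1.48 to 1.62 times the sampling noise, and across them by 3.83 to 9.12 times. No label names the pairs, which were seen in the data. In bulk RNA, fewer cells of a type and less RNA per cell cannot be told apart.

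Per length of annotated exon, the folding machinery of both samples was led by the same 6 genes, the chaperones of bulk folding. That length joins all annotated exons of a gene and can exceed its main transcript, so ranks between genes depend on it. In the AAV::eGFP retina the levels, as CPM divided by the exon length in kilobases (FPKM), were 137 ± 19.5 for *Calr*, 129 ± 30.4 for *Hsp90b1*, 62.1 ± 5.73 for *Canx*, 59.3 ± 2.37 for *P4hb*, 58.8 ± 6.55 for *Hspa5* and 50.0 ± 5.74 for *Pdia3* (SD, n = 5). *Calr* and *Hsp90b1* did not differ beyond their spread, nor did *Canx*, *P4hb* and *Hspa5*, nor *Hspa5* and *Pdia3*. In 661W cells with eGFP the levels were 414 ± 6.71 FPKM for *P4hb*, 302 ± 7.05 for *Calr*, 253 ± 6.48 for *Hsp90b1*, 243 ± 8.93 for *Hspa5*, 198 ± 5.18 for *Pdia3* and 123 ± 1.44 for *Canx* (SD, n = 4). Only *Hsp90b1* and *Hspa5* were within their spread in that order. The lowest members were *Ero1b* (1.96 and 1.45 FPKM) and *Derl3*, at 0.72 FPKM in retina and with 0 counts in all 8 cell libraries. As a group the 36 genes took 0.362 to 0.425% of the counts of AAV::eGFP retinas and 0.376 to 0.421% with AAV::*nsHif1a*. In the cells the share was 0.942 to 0.952% with eGFP and 1.04 to 1.06% with *nsHif1a*, and these ranges did not overlap.

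With AAV::*nsHif1a* the retina had higher levels of *Hspa5*, *Manf*, *Pdia4*, *P4hb*, *Ero1a* and *Xbp1* and a lower level of *Dnajc10*. A gene was called at a Benjamini-Hochberg (BH) adjusted p under 0.05 in limma, fitted over all genes tested. All 36 members were tested and 7 were called (19.4%), against 5.79% of the 18859 genes tested. Of these, 6 were higher (3.31% of all genes were) and 1 was lower (2.47% were). Past an absolute log2FC of 0.5 only *Ero1a* remained, where 1.99% of all genes were past both limits. A log2FC above 0 was found for 24 of 36 members (49.4% of all genes), and the members' median log2FC was 0.10, against -0.0021 over all genes. The libraries of the groups did not overlap for 5 members that were higher (3.25% of all genes) and 1 that was lower (2.69%).

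In 661W cells with *nsHif1a*, *Hspa5*, *Manf*, *Creld2*, *Pdia4*, *Ero1a*, *Xbp1* and *Herpud1* were higher, and no other member was called. The 35 members other than *Derl3* passed the filter on low counts, and 7 of them were called (20%), against 2.49% of the 15962 genes tested. Genes called higher made up 2.06% and genes called lower 0.426% of all genes. Past an absolute log2FC of 0.5 there were *Ero1a* and *Herpud1*, where 1.27% of all genes were past both limits. A log2FC above 0 was found for 32 of 35 members (49.7% of all genes), with a median of 0.13 against -0.0013 over all genes. Groups that did not overlap were found for 18 members that were higher (7.51% of all genes) and for 1, *Dnajc10*, that was lower (6.11%). No label pairs the cell libraries by replicate number, although those with the same number deviated together. Whether this goes beyond the close pairs described above was not tested. With these close pairs as a covariate 18 members were called higher, where 2014 of 15962 genes were called. With the replicate number as a block 2 of the 35 members were called, *Hspa5* (log2FC 0.40, limma adjusted *p* = 0.023) and *Ero1a* (log2FC 1.14, limma adjusted *p* = 0.0053), where 1.14% of all genes were called. The same 2 members were the only ones called without eGFP library 1 and without eGFP library 2, and without *nsHif1a* library 3 or without *nsHif1a* library 4 there were 19 called higher, where 5043 of 16171 and of 16166 genes were called. With each of the close pairs described above summed into 1 library, which leaves 2 against 2, limma called 0 of the 35 members and 6 had an unadjusted p under 0.05.

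**Figure D2:**
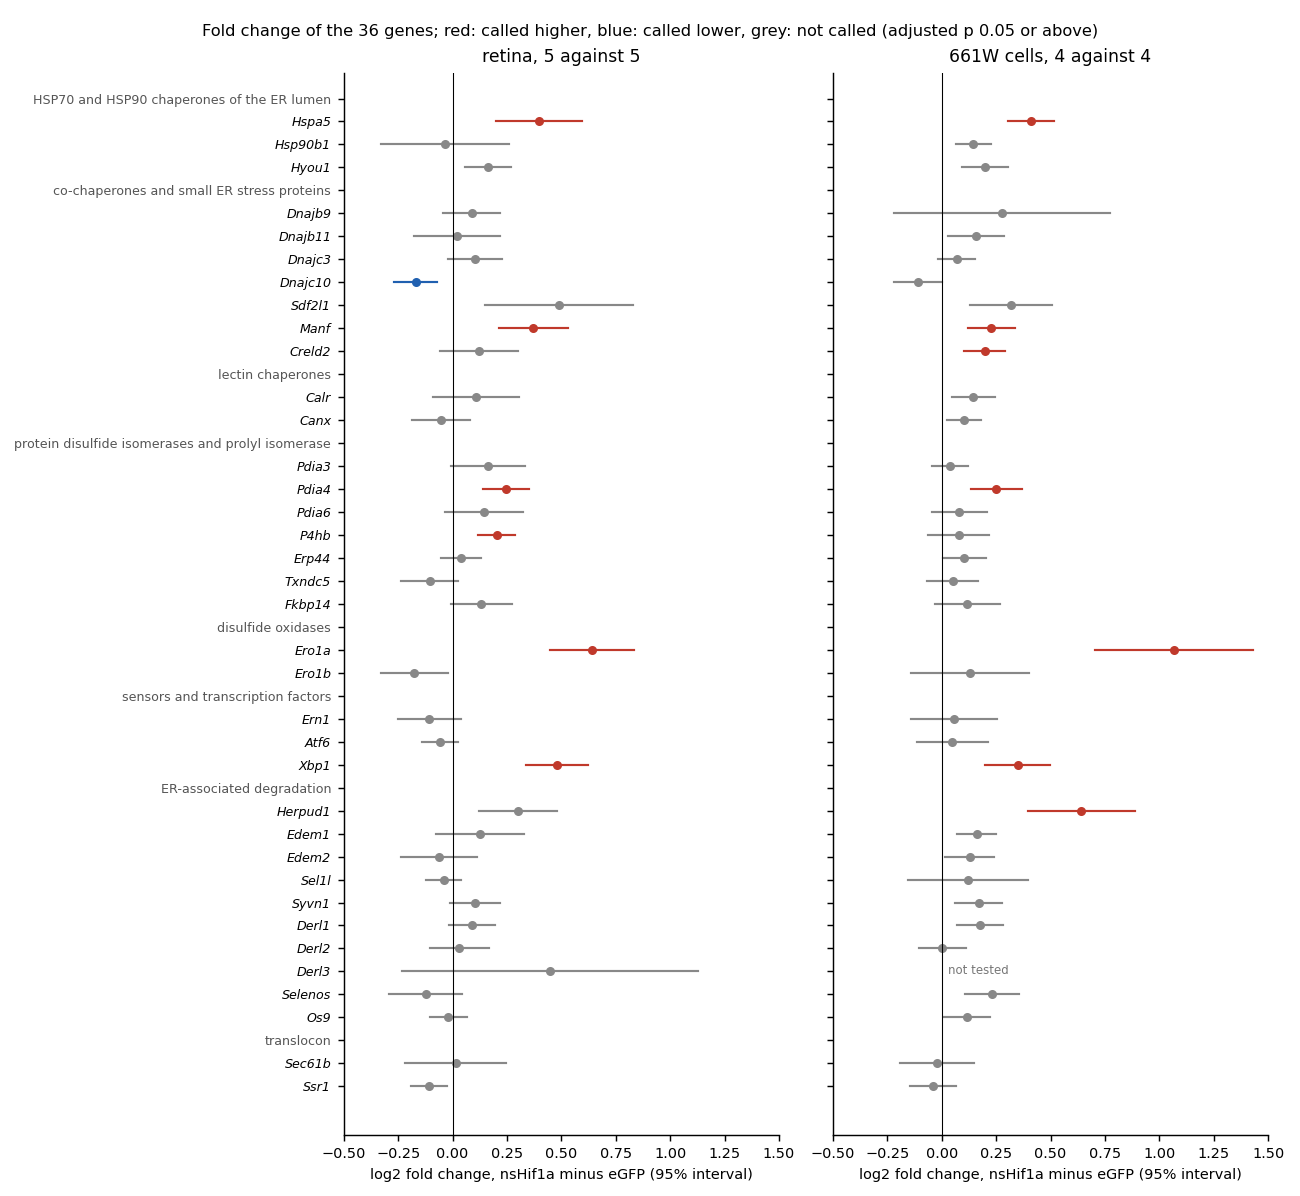
Log2FC of *nsHif1a* against eGFP for the 36 genes, grouped by role, in retina (left) and 661W cells (right). Points are limma estimates with 95% confidence intervals, in red for genes called higher, blue for genes called lower and grey for the others. *Ero1a* lies farthest to the right in both panels, at 0.64 and 1.07.

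Among the Hsp70 and Hsp90 chaperones, *Hspa5* rose in retina and cells by nearly the same amount. BiP, its product, holds unfolded chains and keeps the stress sensors silent. *Hspa5* (ENSMUSG00000026864.14, chromosome 2, 34661982 to 34668880, plus strand) was at 292, 294, 343, 251 and 311 CPM in the AAV::eGFP retinas and at 347, 387, 439.7, 431 and 319.9 CPM with AAV::*nsHif1a*. Only AAV::eGFP library 3 reached into the range of the other group. The log2FC was 0.40 (standard error, SE, 0.09, limma adjusted *p* = 0.024). In the cells it was at 1203, 1182, 1276 and 1263 CPM with eGFP and at 1679, 1709, 1539 and 1599 CPM with *nsHif1a*, and all *nsHif1a* libraries lay above all eGFP libraries. The log2FC was 0.41 (SE 0.05, limma adjusted *p* = 0.0030). The retinal call was lost without AAV::eGFP library 4 (limma adjusted *p* = 0.055) and without AAV::*nsHif1a* library 3 (limma adjusted *p* = 0.070), and edgeR's quasi-likelihood test gave an adjusted *p* = 0.060.

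*Hsp90b1*, which encodes the ER Hsp90 paralog GRP94, did not pass the test in either sample. In retina it was at 427, 419, 716, 615 and 631 CPM with AAV::eGFP and at 484, 534, 601, 586 and 474 CPM with AAV::*nsHif1a*. The 3 highest libraries were the AAV::eGFP libraries without *Xist* counts. Its log2FC was -0.03 (limma adjusted *p* = 0.91), and with the *Xist* class of the libraries as a covariate it was 0.36 (limma adjusted *p* = 0.047). All AAV::*nsHif1a* libraries had *Xist* counts. Wherever this covariate is used, the effect therefore rests on AAV::eGFP libraries 1 and 2 as controls. Among the libraries with *Xist* counts alone the log2FC was also 0.36 (limma adjusted *p* = 0.080). In the cells the levels were 1065 to 1126 CPM with eGFP and 1212 to 1226 CPM with *nsHif1a*, without overlap (log2FC 0.15, limma adjusted *p* = 0.069). *Hyou1*, a large Hsp70-like exchange factor for BiP, had log2FC of 0.16 in retina and 0.20 in cells (limma adjusted *p* = 0.071 and 0.062).

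Of the 7 co-chaperones and small ER stress proteins, *Manf* rose in both samples, *Creld2* rose in cells and *Dnajc10* fell in retina. *Manf*, a small secreted protein that binds BiP and is known as a survival factor for neurons, was at 35.5, 37.8, 43.2, 33.6 and 42.5 CPM in the AAV::eGFP retinas and at 50.8, 51.5, 50.0, 50.8 and 43.8 CPM with AAV::*nsHif1a*. The groups did not overlap, although AAV::*nsHif1a* library 5 was close to the highest control. The log2FC was 0.37 (SE 0.07, limma adjusted *p* = 0.012). The cells had 116, 118, 124 and 120.3 CPM with eGFP and 140.0, 150.2, 134 and 133 CPM with *nsHif1a*, again without overlap. The log2FC was 0.23 (SE 0.05, limma adjusted *p* = 0.045), and 0.21 with the replicate block (limma adjusted *p* = 0.094).

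*Creld2*, a disulfide isomerase-like protein of the ER with an ERSE, showed its call in the cells. There it was at 93.5, 98.9, 99.6 and 94.0 CPM with eGFP and at 113, 110.3, 109 and 109.8 CPM with *nsHif1a*, and the groups were apart. The log2FC was 0.20 (SE 0.04, limma adjusted *p* = 0.044), and 0.19 with the replicate block (limma adjusted *p* = 0.078). In retina it was at 23.5 to 28.3 CPM and 22.5 to 31.6 CPM (log2FC 0.12, limma adjusted *p* = 0.43).

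*Dnajc10*, an ER reductase that opens disulfide bonds of chains bound for degradation, went the other way. In retina it was at 91.5, 79.4, 85.8, 79.2 and 83.5 CPM with AAV::eGFP and at 71.3, 75.0, 74.6, 76.0 and 74.7 CPM with AAV::*nsHif1a*, so that every AAV::*nsHif1a* library was below every control. The log2FC was -0.17 (SE 0.04, limma adjusted *p* = 0.045). This call was held in 1 of 10 fits that left out a library each, in which the log2FC was between -0.20 and -0.14. In the cells the groups were just apart in the same direction, at 171.78 to 188 CPM with eGFP and 156 to 171.76 CPM with *nsHif1a* (log2FC -0.11, limma adjusted *p* = 0.24). The other co-chaperones of the J-protein family, *Dnajb9*, *Dnajb11* and *Dnajc3*, had log2FC of 0.02 to 0.10 in retina and 0.07 to 0.28 in cells and did not pass the test. *Sdf2l1*, a cofactor of *Dnajb11* and BiP, had log2FC of 0.49 and 0.32 (limma adjusted *p* = 0.092 and 0.077), at only 4.23 to 9.95 CPM in retina.

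**Figure D3:**
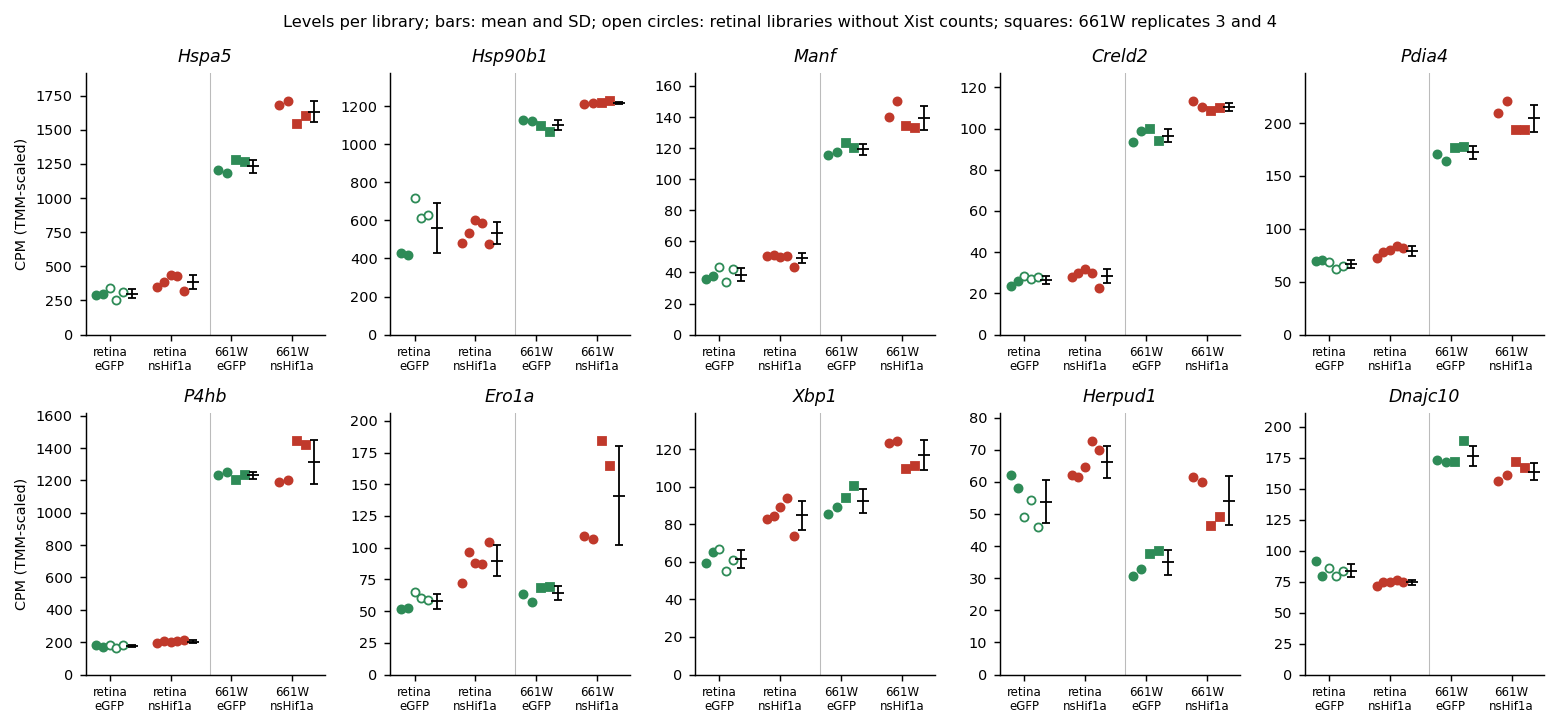
CPM of 10 genes in every library, by group, in retina and 661W cells, with the mean and SD of each group as a bar. Open circles are retinal libraries without *Xist* counts and squares are replicates 3 and 4 of the cells. For *Ero1a* and *Xbp1* every *nsHif1a* point is above every eGFP point in both samples, and for *Hsp90b1* the 3 open circles are the highest retinal points.

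Neither lectin chaperone passed the test, in spite of their high levels. *Calr*, which encodes calreticulin and carries an ERSE, had log2FC of 0.11 in retina and 0.14 in cells (limma adjusted *p* = 0.53 and 0.11). *Canx*, for the membrane-bound calnexin, had log2FC of -0.05 and 0.10 (limma adjusted *p* = 0.67 and 0.15). In the cells all *nsHif1a* libraries were above all eGFP libraries for both genes.

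Of the 6 disulfide isomerases and the prolyl isomerase *Fkbp14*, *Pdia4* was called in both samples and *P4hb* in retina. *Pdia4*, also known as ERp72 (ENSMUSG00000025823.10, chromosome 6, 47770077 to 47790462, minus strand), was at 69.4, 70.4, 68.5, 61.8 and 64.8 CPM in the AAV::eGFP retinas and at 72.2, 77.9, 79.9, 84.1 and 81.5 CPM with AAV::*nsHif1a*. The groups were apart (log2FC 0.25, SE 0.05, limma adjusted *p* = 0.014), and the call was lost without AAV::eGFP library 5 (limma adjusted *p* = 0.055). It was also lost with the *Xist* class as a covariate (log2FC 0.17, limma adjusted *p* = 0.15). In the cells *Pdia4* was at 171, 164, 176 and 177 CPM with eGFP and at 209, 221, 194 and 194 CPM with *nsHif1a*. These groups were also apart (log2FC 0.25, SE 0.05, limma adjusted *p* = 0.042). With the replicate block the log2FC was 0.23 (limma adjusted *p* = 0.099).

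*P4hb* encodes PDI itself, which also serves as the β subunit of the collagen prolyl 4-hydroxylases. In retina it was at 181, 172, 180.3, 167 and 184 CPM with AAV::eGFP and at 193, 208, 201, 205 and 213 CPM with AAV::*nsHif1a*. No library of one group reached the other (log2FC 0.20, SE 0.04, limma adjusted *p* = 0.010). The call was lost with the *Xist* class as a covariate (log2FC 0.21, limma adjusted *p* = 0.057). In the cells it was at 1232, 1253, 1205 and 1236 CPM with eGFP and at 1189.6, 1202, 1442 and 1421 CPM with *nsHif1a*, so that the first 2 *nsHif1a* libraries were below the controls and the last 2 above. The log2FC was 0.08 (limma adjusted *p* = 0.51). The remaining isomerases *Pdia3*, *Pdia6*, *Erp44* and *Txndc5* and the prolyl isomerase *Fkbp14* had log2FC between -0.11 and 0.16 in retina and between 0.04 and 0.12 in cells, and none passed the test.

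The largest differences in both samples were those of *Ero1a*, the oxidase that passes electrons from PDI to oxygen. *Ero1a* (ENSMUSG00000021831.10, chromosome 14, 45520541 to 45556228, minus strand) was at 51.4, 52.5, 65.3, 60.0 and 58.9 CPM in the AAV::eGFP retinas and at 71.8, 96.8, 88.0, 87.1 and 105 CPM with AAV::*nsHif1a*. All AAV::*nsHif1a* libraries were above all controls. The log2FC was 0.64 (SE 0.09, limma adjusted *p* = 0.0018), a 1.56-fold higher level. In the cells it was at 63.1, 56.9, 68.1 and 68.9 CPM with eGFP and at 109, 107, 184 and 165 CPM with *nsHif1a*, where replicates 3 and 4 stood above replicates 1 and 2. The log2FC was 1.07 (SE 0.16, limma adjusted *p* = 0.012), a 2.10-fold higher level. *Ero1a* kept its call in every fit that left out 1 library.

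Its relative *Ero1b* did not pass the test. It was at 14.4, 15.5, 13.4, 13.9 and 13.2 CPM in the AAV::eGFP retinas and at 12.5, 12.3, 11.6, 13.8 and 12.3 CPM with AAV::*nsHif1a* (log2FC -0.18, limma adjusted *p* = 0.17). In the cells it was at 9.40 to 11.7 CPM and 9.21 to 13.0 CPM (log2FC 0.13, limma adjusted *p* = 0.58). The balance of the 2 oxidases can be read within each library. The log2 ratio of *Ero1a* to *Ero1b* counts was 2.02 ± 0.22 with AAV::eGFP and 2.82 ± 0.23 with AAV::*nsHif1a* (SD, n = 5), a difference of 0.80. An exact two-sided permutation test gave *p* = 0.0079, which is the smallest that 5 against 5 allow (0.016 after BH adjustment over the 2 samples). In the cells the ratio was 2.61 ± 0.11 and 3.57 ± 0.32 (SD, n = 4), a difference of 0.96 (exact two-sided permutation test *p* = 0.029, the smallest that 4 against 4 allow). This test treats all cell libraries as separate units, although replicates 1 and 2 lay close together, as did 3 and 4, so the p may be too small. The ratios of the groups did not overlap in either sample.

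Of the 3 sensors and transcription factors only *Xbp1*, whose spliced form drives the ERAD and folding genes, passed the test. Gene counts do not tell spliced from unspliced *Xbp1*. *Xbp1* (ENSMUSG00000020484.20, chromosome 11, 5470606 to 5483027, plus strand) was at 59.1, 65.5, 67.0, 55.0 and 61.1 CPM in the AAV::eGFP retinas and at 82.6, 84.2, 89.1, 93.9 and 73.6 CPM with AAV::*nsHif1a*. The groups were apart (log2FC 0.48, SE 0.07, limma adjusted *p* = 0.0016), and the call was kept without each library in turn. In 661W cells it was at 85.3, 89.3, 93.9 and 100.2 CPM with eGFP and at 123, 124, 109 and 111 CPM with *nsHif1a*. The groups did not overlap there (log2FC 0.35, SE 0.07, limma adjusted *p* = 0.032), and with the replicate block the log2FC was 0.32 (limma adjusted *p* = 0.084). The sensor genes themselves had small values. *Ern1* (IRE1) had log2FC of -0.11 and 0.06 and *Atf6* of -0.06 and 0.05 in retina and cells (limma adjusted *p* = 0.38 and 0.76, and 0.40 and 0.75).

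Of the 10 ERAD genes, 0 were called in retina by limma (1, *Herpud1*, at an unadjusted p under 0.05) and 1, also *Herpud1*, was called in cells. *Herpud1* encodes a ubiquitin-like membrane protein that organises the retrotranslocation complex. In the cells it was at 30.6, 33.0, 37.6 and 38.4 CPM with eGFP and at 61.5, 60.1, 46.2 and 49.0 CPM with *nsHif1a*, and replicates 1 and 2 stood above 3 and 4. The log2FC was 0.64 (SE 0.11, limma adjusted *p* = 0.023), a 1.56-fold higher level, and 0.60 with the replicate block (limma adjusted *p* = 0.075). In retina it was at 62.1, 58.0, 48.9, 54.4 and 45.8 CPM with AAV::eGFP and at 62.1, 61.7, 64.5, 72.7 and 69.8 CPM with AAV::*nsHif1a*. The controls reached the lower end of the other group, and the log2FC was 0.30 (limma adjusted *p* = 0.051). Without AAV::eGFP library 1 the same gene was called (log2FC 0.37, limma adjusted *p* = 0.017), as it was without AAV::eGFP library 2 (log2FC 0.35, limma adjusted *p* = 0.028). DESeq2 called it with all libraries (log2FC 0.30, adjusted *p* = 0.011). With the *Xist* class as a covariate the log2FC was 0.12 (limma adjusted *p* = 0.47).

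The core of the ERAD ligase, *Syvn1* (HRD1) and its partner *Sel1l*, had log2FC of 0.10 and -0.04 in retina and 0.17 and 0.12 in cells. The mannosidase-like *Edem1* and *Edem2* had log2FC of 0.13 and -0.06 in retina and 0.16 and 0.13 in cells. The channel proteins *Derl1* and *Derl2* had 0.09 and 0.03 in retina and 0.18 and 0.00 in cells. *Selenos*, a selenoprotein of the same complex, had -0.12 in retina and 0.23 in cells (limma adjusted *p* = 0.38 and 0.061), and the lectin *Os9* had -0.02 and 0.11. None of these passed the test. In the cells the groups were apart for *Syvn1*, *Edem1*, *Edem2*, *Derl1* and *Selenos*, all with higher *nsHif1a* libraries. *Derl3* was tested in retina alone, at 0.602 to 1.64 CPM (log2FC 0.45, limma adjusted *p* = 0.44). The translocon genes *Sec61b* and *Ssr1* had log2FC of 0.01 and -0.11 in retina and -0.02 and -0.04 in cells, and neither passed the test.

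Between the samples, 5 of the 35 members tested in both were called higher in both (*Hspa5*, *Manf*, *Pdia4*, *Ero1a* and *Xbp1*), where 0.623% of all genes tested in both were. In retina *Hspa5* and *Pdia4* lost their call with the *Xist* class as a covariate (limma adjusted *p* = 0.096 and 0.15). In cells *Manf*, *Pdia4* and *Xbp1* lost theirs with the replicate block (limma adjusted *p* = 0.094, 0.099 and 0.084). Of these 5 only *Ero1a* stayed called in both of these fits. The difference between the retinal and the cellular effect was tested with an interaction term over all 18 libraries. It passed the limma adjusted p for 0 of the 36 members in that fit, where 2.33% of all genes passed it. At an unadjusted p under 0.05 there were 4 members (16.8% of all genes), *Ero1a* (retina minus cells -0.52), *Selenos* (-0.34), *Ero1b* (-0.34) and *Herpud1* (-0.30), each with a lower log2FC in retina. edgeR called 0 of them and DESeq2 called 1, *Selenos*, where 443 and 1066 of 20999 genes were called. So *Creld2* and *Herpud1*, called in cells alone, and *P4hb* and *Dnajc10*, called in retina alone, were not shown to differ between the samples with all libraries. Without *nsHif1a* library 3 of the cells, and again without library 4, the difference was called for *P4hb* (higher in retina), *Herpud1* and *Selenos* (lower in retina), where 3097 of 21454 and 3113 of 21452 genes were called. Without *nsHif1a* library 1 or library 2 of the cells it was called for *Ero1a* and *Atf6*, both lower in retina, where 626 of 21431 and 667 of 21457 genes were called. It was called for *Selenos* alone without retinal AAV::eGFP library 4 (248 of 20894 genes) or AAV::*nsHif1a* library 4 (363 of 20902). The same held without eGFP library 3 or 4 of the cells (665 of 21452 and 659 of 21457 genes).

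Calls fell on members with and without an ERSE or ERSE-II. In retina 2 of these 13 were called higher (*Hspa5* and *Manf*), with a median log2FC of 0.12, and 4 of the 23 others were called higher and 1 lower, with a median of 0.03. Of all genes 3.31% were called higher and 2.47% lower there. In cells 4 of the 12 tested with an element were called higher (*Hspa5*, *Manf*, *Creld2* and *Herpud1*), with a median of 0.16, and 3 of the 23 others, with a median of 0.12. Of all genes 2.06% were called higher in cells. With the replicate block the cell calls left were *Hspa5*, with an element, and *Ero1a*, without. *Pdia4*, *Ero1a* and *Xbp1*, called in both samples, had neither element in the window. *Ero1b*, which has an ERSE, had a log2FC of -0.18 in retina and was not called in either sample.

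The retinal calls were read beside the lens and *Xist* values. With the mean level of 6 γ-crystallin genes as a covariate *P4hb*, *Ero1a* and *Xbp1* were still called, where 549 of 18859 genes were. In that fit *Hspa5* had a log2FC of 0.35 (limma adjusted *p* = 0.16), *Manf* of 0.39 (limma adjusted *p* = 0.051) and *Pdia4* of 0.25 (limma adjusted *p* = 0.075), and *Dnajc10* was not called. With the *Xist* class as a covariate *Manf*, *Ero1a*, *Xbp1* and *Hsp90b1* were called, in a fit whose effect rests on AAV::eGFP libraries 1 and 2 as controls. *Ero1a* and *Xbp1* were called under both covariates. The summed level of 10 microglia and macrophage markers was 31.9 to 204 CPM with AAV::eGFP and 63.8 to 199 CPM with AAV::*nsHif1a*. All 10 had a log2FC above 0 (median 1.096), but 0 were called. For 8 plasma and B cell markers the sums were 10.9 to 175 and 19.4 to 287 CPM. The 3 that were tested had a log2FC above 0 (median 2.32), and 0 were called. The 20 interferon response genes summed to 1182 and 664 CPM in AAV::eGFP libraries 1 and 2, to 119 to 130.2 CPM in libraries 3 to 5 and to 166 to 547 CPM with AAV::*nsHif1a*. The part of these cells and genes and of the lower rod marker levels in the retinal values was not tested. For lens tissue and the *Xist* class only the covariate fits and the fit to libraries with *Xist* counts alone were made.

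In the cells the size of the effect differed between replicates 1 and 2 and replicates 3 and 4 for 13 of the 35 members (limma adjusted p of the difference under 0.05), where 19.6% of all genes differed. The effect was larger in replicates 1 and 2 for 24 members (49.7% of all genes), and for 10 of the 13. *Herpud1* had log2FC of 0.94 in replicates 1 and 2 and 0.33 in replicates 3 and 4 (limma adjusted p of the difference 3.5e-05), and *Xbp1* had 0.51 and 0.19. *Hspa5* had 0.51 and 0.30, *Pdia4* 0.36 and 0.13, and *Manf* 0.31 and 0.13. The other direction was found for 3 members, *Ero1a* with log2FC of 0.85 and 1.35 (limma adjusted p of the difference 0.00018), *P4hb* with -0.055 and 0.23 and *Atf6* with -0.05 and 0.17. Beside this, *Hif1a* was at 1222 and 1242 CPM in *nsHif1a* replicates 1 and 2 and at 1954 and 1825 CPM in replicates 3 and 4, and the summed level of 20 interferon response genes was 15738 and 15702 CPM in the first pair and 9825 and 10571 CPM in the second. The pairs were chosen after the data were seen, so these tests describe the 8 libraries, and the part of *Hif1a* level or interferon response in the differences was not tested.

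**Figure D4:**
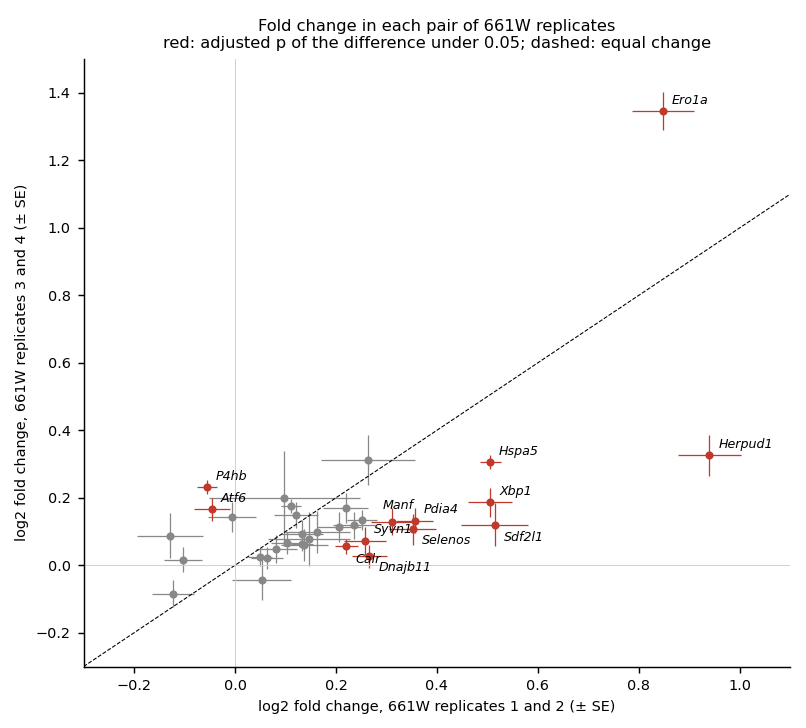
Log2FC of *nsHif1a* against eGFP for the 35 members tested in 661W cells, in replicates 1 and 2 (x axis) and 3 and 4 (y axis), with SE bars and a dashed line of equal values. Red points are the 13 members whose effect differed between the pairs, of which 10 lie below the line and *Ero1a*, *P4hb* and *Atf6* above it.

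The rest of the ER folding and degradation pathway, a list of 87 further genes, was counted in the same way. In retina 3 of 86 tested were called higher and 2 lower (5.81%, close to the 5.79% of all genes), with a median log2FC of 0.04. In cells 1 of 84 was called (1.19%, against 2.49% of all genes) and was higher, *Wfs1* (log2FC 0.29, limma adjusted *p* = 0.036), which encodes wolframin, an ER membrane protein, with a median log2FC of 0.03. With the replicate block *Wfs1* had a log2FC of 0.30 (limma adjusted *p* = 0.052). The 5 called in retina were the ERAD enzyme *Ube2j1* (0.22), the ubiquitin-like membrane protein *Tmub1* (0.35), the transcription factor *Creb3* (0.20), the isomerase *Pdia5* (-0.36) and the BiP exchange factor *Sil1* (-0.31). None of these 5 was called with the *Xist* class as a covariate (limma adjusted p of 0.12 to 0.24). These genes were named after their values were seen.

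The 25 genes of the ATF4 branch, the arm of the stress response that acts through PERK and other eIF2α kinases, had larger values. In retina 9 were called higher, where 3.31% of all genes were. The median log2FC was 0.18, and the list was led by the transcription factor *Atf3* (1.69) and the glutathione-degrading enzyme *Chac1* (1.03). With the *Xist* class as a covariate 3 were called higher, where 434 of 18859 genes were called in either direction. The median was then 0.16, and *Chac1* had a log2FC of 0.56 (limma adjusted *p* = 0.37). In cells 16 of 25 were called higher, where 2.06% of all genes were. The median was 0.54, and the list was led by *Atf3* (1.84) and the lipoprotein receptor *Vldlr* (1.52). With the replicate block 10 were called, where 1.14% of all genes were. Of 30 known HIF targets, 28 were called higher in retina (median 0.59) and 19 of 28 tested in cells (median 0.64). With the replicate block 17 of 28 HIF targets were called, and the shares of all genes were those just given. Among them were *Egln3* (2.38 in retina), a HIF prolyl hydroxylase, and the adenylate kinase *Ak4* (2.37 in cells). The medians of the 36 members, 0.10 and 0.13, lay below those of both of these lists in each sample. Of the members, only *Ero1a* had a log2FC above the median of the HIF targets in both samples.

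**Figure D5:**
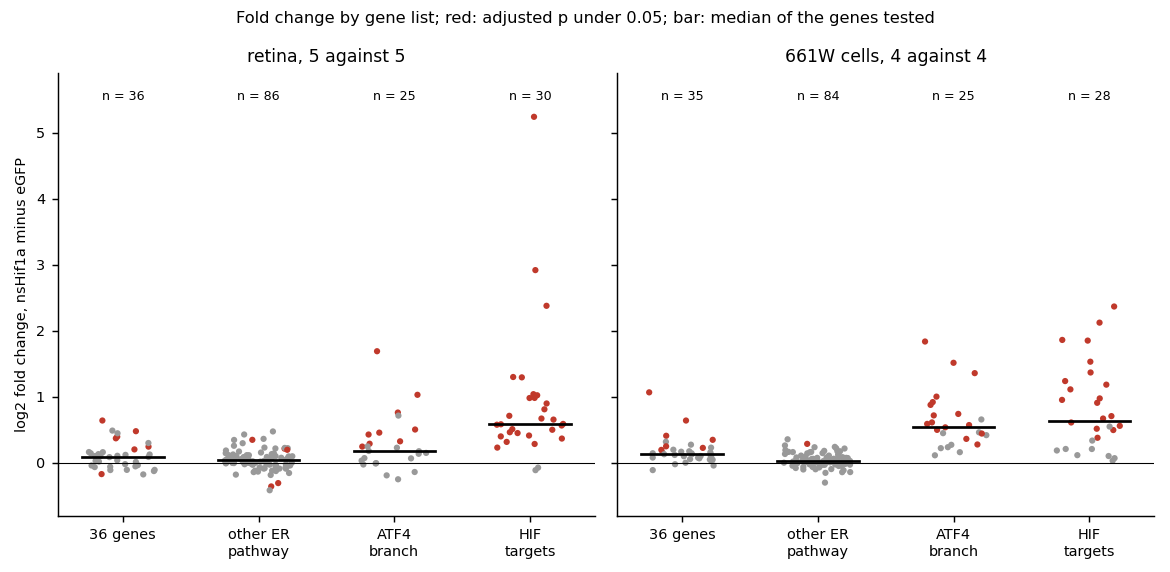
Log2FC of *nsHif1a* against eGFP for the genes of 4 lists in retina and 661W cells, namely the 36 members, the 87 other pathway genes, 25 genes of the ATF4 branch and 30 HIF targets. Red points passed an adjusted p under 0.05 and the bar is the median, which in cells is 0.13, 0.03, 0.54 and 0.64 in that order.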

How the data were processed

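mRNA of 10 mouse retinas and of 8 samples of 661W cells was sequenced from stranded libraries. The authors used Rsubread to align the reads to GRCm39 and featureCounts, in its antisense mode, to count them by gene. The deposited tables hold these whole-number counts, without filtering or normalization, and 0 columns were left unmapped. Near-identical genes can share or lose reads. Samples were grouped by their labels.

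From the counts, genes were filtered with filterByExpr (minimum count 10), scaled by TMM with edgeR 4.0.16 and fitted in limma 3.58.1 (voomWithQualityWeights, lmFit, eBayes; R 4.3.3), with BH adjustment over all genes. CPM values are scaled by TMM. The *Ero1a* to *Ero1b* ratio used exact permutation tests over libraries, with a prior count of 2. All 36 members are named by rule. Genes of other lists are named where they passed both thresholds, at most 4 per list, unless stated. The members and all lists were chosen with earlier results of these data known. In the cells, samples with the same replicate number deviated together (correlation 0.227 to 0.269), so the block is given beside calls it changes. Samples with different numbers were not compared in this way. In retina the correlations were -0.15 to 0.14. Alternatives were edgeR, DESeq2 1.42.0, other weights, size factors and filters, the block, covariates and leaving out each library. Positions and promoters come from gencode release 39 on GRCm39, which held 78168 of the 78239 identifiers. The fits were checked on artificial counts with known changes.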

Additional observations from a re-analysis of the deposited data

Results flagged for a closer look

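In 8 of 144 groups of libraries 1 library stood apart from the rest by Dixon's test, which chance does in about 1 in 20 groups. In retina, AAV::*nsHif1a* library 5 was low for *Manf* (43.8 CPM, next lowest 50.0) and for *Fkbp14* (18.02 CPM, next lowest 20.2), and AAV::eGFP library 1 was low for *Ern1* (35.4 CPM, next lowest 40.9). *Manf* was called without each retinal library in turn. In the cells, eGFP library 4 was high for *Dnajc10* (188 CPM, next highest 173) and for *Derl1* (163 CPM, next highest 149.6). eGFP library 3 was high for *Calr* (973 CPM), eGFP library 2 low for *Canx* (864 CPM) and *nsHif1a* library 1 high for *Derl2* (51.5 CPM). None of these 5 genes was called in the cells.

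In the cells, 13 members had an effect that differed between replicates 1 and 2 and replicates 3 and 4, by a test of the difference itself in limma. For 10 members the log2FC was larger in replicates 1 and 2. The difference was 0.61 for *Herpud1*, 0.39 for *Sdf2l1*, 0.32 for *Xbp1*, 0.25 for *Selenos*, 0.24 for *Dnajb11*, 0.22 for *Pdia4*, 0.20 for *Hspa5*, 0.18 for *Syvn1*, 0.18 for *Manf* and 0.16 for *Calr*. For 3 it was smaller there, with a difference of -0.50 for *Ero1a*, -0.29 for *P4hb* and -0.21 for *Atf6*. The pairs were seen in the data and carry no label. The part of the *nsHif1a* level, which was higher in replicates 3 and 4, was not tested.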

How the results depend on the processing

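Of the values of single members, 678 in retina and 552 in cells kept their side of the threshold under the alternatives, 33 and 32 lost a call, and 7 and 80 gained one. A turned direction was counted only where the value was called in the main fit or in the alternative. Uncalled values could therefore turn uncounted, such as *Canx* in retina, at -0.05 and, with the *Xist* class as a covariate, 0.10. The direction of 2 turned with a call, *Hsp90b1* in retina with the *Xist* class as a covariate (log2FC 0.36) and *P4hb* in cells within replicates 1 and 2 (-0.055). In retina, members called higher numbered 3 among the libraries with *Xist* counts alone (239 of 19926 genes called in all) and 3 with the γ-crystallin covariate (549 of 18859 genes). They numbered 5 to 8 when 1 library was left out (576 to 1353 genes). Members called lower numbered 0 without sample weights, without the low-count filter, with the block, with either covariate and among the libraries with *Xist* counts alone, and 0 to 1 when 1 library was left out. Members past a log2FC of 0.5 numbered 1 to 2 when 1 library was left out, and 2 without AAV::eGFP library 2, without AAV::eGFP library 3 or without AAV::*nsHif1a* library 5. In cells, members called higher numbered 14 with DESeq2 (1009 of 15962 genes called in all), 5 with edgeR (299 genes, with *Manf* and *Pdia4* lost at an adjusted *p* = 0.055 for each), 18 with the pairs of replicates as a covariate (2014 genes), 22 within replicates 1 and 2 (5773 genes), 12 within replicates 3 and 4 (1027 genes), 0 with the pairs summed (0 of 18117 genes, an alternative chosen after the data were seen) and 2 to 19 when 1 library was left out (124 to 5043 genes), against 7 members and 397 genes in the fit reported above. Members called lower numbered 3 within replicates 1 and 2, and 0 to 1 when 1 library was left out. Members past a log2FC of 0.5 numbered 5 within replicates 1 and 2, 1 within replicates 3 and 4, 0 with the pairs summed and 1 to 2 when 1 library was left out. The calls of *Manf* and *Pdia4* were also lost without *nsHif1a* library 1 and that of *Creld2* without eGFP library 4, and those of *Manf* and *Creld2* without the low-count filter. For the retina minus cells difference, DESeq2 called 1 member lower, and leaving out 1 library gave 0 to 2 lower and 0 to 1 higher. The *Ero1a* to *Ero1b* log2 ratio differed by 0.73 to 0.88 in retina and by 0.88 to 1.11 in cells when 1 library was left out, and without eGFP library 1, 2 or 4 of the cells the exact permutation p was 0.057. The causes were not tested.

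With the replicate number as a block, 2 members (*Ero1a* and *Xbp1*) were called higher and 0 lower in retina (439 of 18859 genes called in all). Same-numbered retinal libraries did not consistently deviate together. In cells 2 members were called higher with the block (182 of 15962 genes called in all), with 1 past a log2FC of 0.5. The paired ratio differences stayed at 0.80 and 0.96, and exact sign-flip tests over 5 and 4 pairs cannot reach the threshold. The block also lowered the calls of the other lists in cells, to 10 of the ATF4 branch, 17 of the HIF targets and 0 of the other pathway genes. Of all genes 1.14% were called with the block and 2.49% without it.

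At these depths *Derl3* had 0 counts in cells, which allows up to 0.168 to 0.223 CPM per library (3 counts, counting error only). A p that missed the threshold does not show equal levels.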
